A study of Mus musculus with 18 samples.

Results

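The genes described here encode nuclear subunits of respiratory complex I, the NADH:ubiquinone oxidoreductase of the inner mitochondrial membrane. They were taken by name, as a list of 30 genes of the Ndufa, Ndufb, Ndufc, Ndufs and Ndufv families, and all 30 were found among the 53465 genes counted in each library. Total RNA had been sequenced from brown adipose tissue (BAT), skeletal muscle (SKM) and white adipose tissue (WAT) of wild-type C57BL/6J mice on normal chow. In each tissue, 3 libraries came from mice given quercetin, a plant flavonol, at 0.125 mg/kg by oral gavage in 100 µL of 10% PEG400 in PBS, and 3 came from mice given that vehicle. This makes 18 libraries in 6 groups of long-term, low-dose treatment and its control. The labels name neither the white fat depot nor the muscle, nor do they give the sex or age of the sequenced animals or the length of treatment. A start at 14 months, in males, is stated for a lifespan experiment.

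Complex I takes electrons from NADH, passes them through a flavin and a chain of iron-sulfur clusters to ubiquinone, and pumps protons as it does so. Its matrix arm holds the redox chain, and its membrane arm holds the proton pumps, which are built from the ND subunits encoded by mitochondrial DNA. Accessory subunits surround this core, and assembly factors that do not stay in the finished enzyme help to build it. Brown fat, which burns fuel for heat, and muscle are both rich in mitochondria compared with white fat. Of the 30 genes, 6 encode core subunits of the matrix arm, 8 accessory subunits of the matrix arm and 15 accessory subunits of the membrane arm. Ndufa4 was named as a complex I subunit and later assigned to cytochrome c oxidase, complex IV, and it is given separately.

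Gene counts summed to 8436308 to 12311345 per library, and the lowest count of any of the 30 genes in any library was 125. Levels are in CPM, read counts scaled to a common library size with TMM factors over the 18 libraries, and levels of different genes are compared only as CPM per kilobase (kb) of the longest principal transcript. In bulk tissue, fewer cells of a type and less RNA per cell cannot be told apart. Some libraries held transcripts of other tissues. BAT quercetin 3 had 30080 CPM of 6 summed muscle markers against 5.16 to 4206 CPM in the other BAT libraries, and 2937 CPM of 5 brown adipocyte markers against 7897 to 11600 CPM. WAT vehicle 2 had 113 CPM of 5 adipocyte markers against 1252 to 12010 CPM in the other WAT libraries. SKM quercetin 2 had 26120 CPM of 4 seminal vesicle genes, for which the other SKM libraries had no count. SKM vehicle 1 stood apart in earlier results of these data. Tissue results are given below with and without these 4 libraries. SKM vehicle 3 also had 2211 CPM of adipocyte markers, and 5 B cell markers summed to 562 to 2969 CPM in 4 WAT libraries but to 3.14 CPM in WAT quercetin 2 and 1.199 CPM in WAT vehicle 1.

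Promoter windows of 27 of the 30 genes were found in RefSeq (GRCm38.p6), each reaching 250 bases before and 50 bases after a start site. They were searched on both strands for 4 words known from regulators of mitochondrial genes: AAGGTCA of estrogen-related receptors, GCGCATG of NRF1, CCGGAAG of ETS factors such as GABPA, and ATGGCGG of YY1. The YY1 word was in 25% of the 28 windows of these genes and in 4.05% of all 32851 windows of that length. For Ndufa9, Ndufb5, Ndufs4, Ndufs6 and Ndufs7 this word did not lie within the 250 upstream bases. Only for Ndufa1 and Ndufa5 did it lie there. The NRF1 word was in 14.3% against 3.91%, the ETS word in 14.3% against 8.86%, and the receptor word in 3.57% against 4.72%. These shares describe letters, not binding. The 250 upstream bases lay outside every exon annotated in GENCODE M21 in 6 of these windows. They are shown, 5′ to 3′ along the gene, for Ndufb6, among the highest genes of BAT over WAT and of BAT over SKM below, and for Ndufb8, which also passed in BAT over SKM. Capitals mark the words, and CTTCCGG is the ETS word read on the other strand. Ndufb6 carries the ETS and the NRF1 word, which do not overlap. The NRF1 word of Ndufb8 lies outside the bases shown, and no other of the 4 words was found in its window.
Ndufb6, chr4:40279422-40279671, minus strand: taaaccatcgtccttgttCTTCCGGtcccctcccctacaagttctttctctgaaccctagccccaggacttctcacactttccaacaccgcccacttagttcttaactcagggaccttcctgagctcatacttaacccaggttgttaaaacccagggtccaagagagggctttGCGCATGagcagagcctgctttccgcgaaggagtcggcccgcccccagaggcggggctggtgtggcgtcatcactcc
Ndufb8, chr19:44555443-44555692, minus strand: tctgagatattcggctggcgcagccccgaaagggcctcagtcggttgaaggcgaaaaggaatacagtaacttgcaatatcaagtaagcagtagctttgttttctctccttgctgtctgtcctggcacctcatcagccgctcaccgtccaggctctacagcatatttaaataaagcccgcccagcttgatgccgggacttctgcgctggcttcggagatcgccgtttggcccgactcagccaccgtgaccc

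Transcripts of the 30 genes were most abundant in BAT, intermediate in SKM and least abundant in WAT. Their summed level was 20370, 12800 and 11890 CPM in quercetin and 7638, 14390 and 13620 CPM in vehicle BAT libraries. It was 5954, 7868 and 10930 CPM in quercetin and 6257, 11590 and 5592 CPM in vehicle SKM libraries. In WAT it was 2037, 1959 and 2359 CPM in quercetin and 2274, 1695 and 1517 CPM in vehicle WAT libraries. The BAT and SKM ranges overlapped, and every BAT and SKM library lay above every WAT library. As a share of all gene counts, without TMM scaling, the 30 genes took 0.763 to 1.52% in BAT, 0.462 to 0.926% in SKM and 0.216 to 0.336% in WAT.

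**Figure D1:**
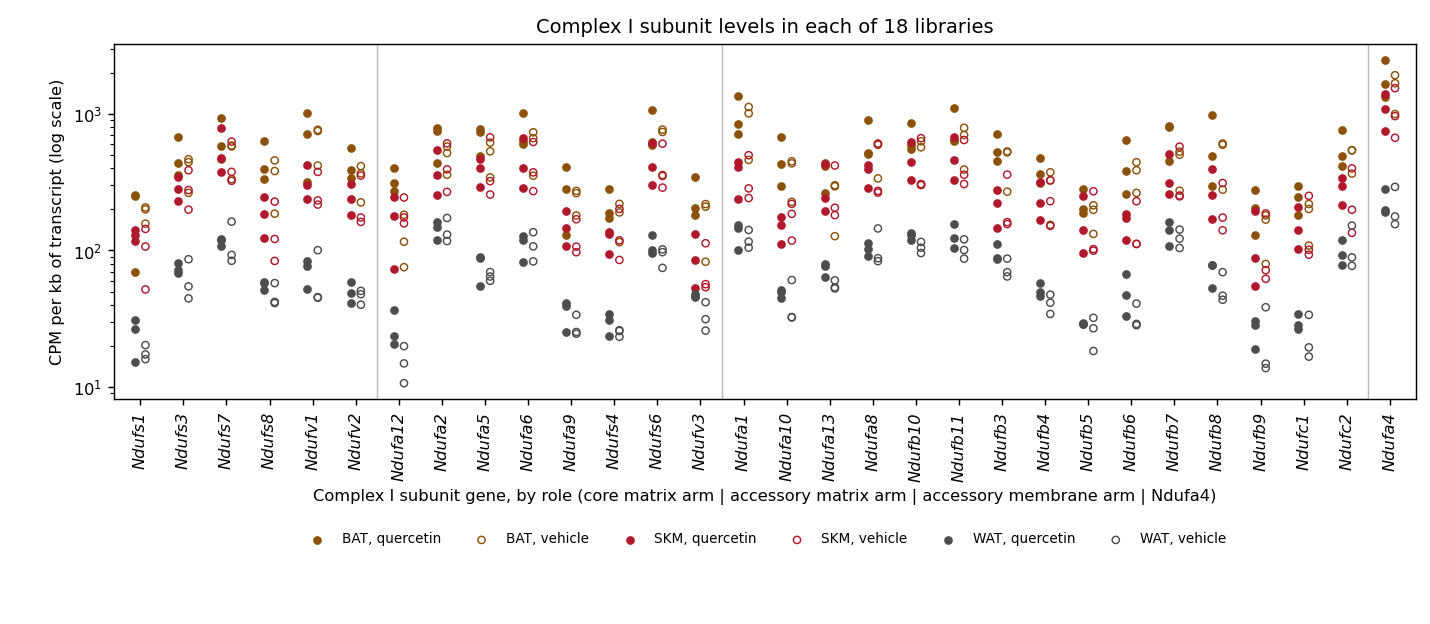
Level of each of the 30 genes in each of 18 libraries, as CPM per kb of transcript on a log axis; filled points are quercetin libraries, open points vehicle libraries, and vertical lines separate the roles. The WAT points lie below the BAT points of the same gene throughout, BAT and SKM points overlap for most genes, and Ndufa4 at the right is the highest gene of each tissue, with means of 1680 in BAT, 1069 in SKM and 216 CPM per kb in WAT.

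All 30 genes were higher in BAT than in WAT, by 3.99-fold to 10.02-fold. In edgeR's quasi-likelihood test the Benjamini-Hochberg adjusted p lay between 1.05e-05 and 1.88e-04, and 40.3% of the 16388 genes tested passed in either direction, 18.3% higher in BAT. The median log2 fold change was 2.84 over the 30 genes and -0.13 over all genes tested. By role, it was 2.97 for the core subunits, 2.81 for the accessory subunits of the matrix arm and 2.83 for those of the membrane arm. BAT and WAT libraries did not overlap for any of the 30 genes, while 8.19% of all genes had every BAT library above every WAT library.

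Among the core subunits, Ndufv1, which binds NADH and the flavin, had 1700, 1178 and 529 CPM in quercetin and 696, 1246 and 1272 CPM in vehicle BAT libraries, against 86.2, 140 and 128 CPM in quercetin and 167, 74.9 and 75.6 CPM in vehicle WAT libraries. Its lowest BAT value came from quercetin 3, the library with muscle transcripts, and lay above each WAT value. The log2 fold change of Ndufv1 was 3.30 ± 0.36 (SE). It was 3.19 ± 0.35 for Ndufs1, a large subunit with several iron-sulfur clusters, and 2.99 ± 0.28 for Ndufv2, which carries a cluster beside the flavin. Ndufs8, with clusters near the membrane arm, was at 2.94 ± 0.32, Ndufs3 at 2.70 ± 0.27 and Ndufs7, which holds the last cluster before ubiquinone, at 2.32 ± 0.30. Each of these 6 estimates is several SE above 0, and differences between genes were not tested.

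The highest and lowest estimates of BAT over WAT were otherwise those of accessory subunits. Ndufa12 in the matrix arm had the highest, 3.32 ± 0.34, and Ndufb6 in the membrane arm came after Ndufv1 with 3.30 ± 0.31. Ndufb6 had 427, 250 and 171 CPM in quercetin and 174, 292 and 255 CPM in vehicle BAT libraries, against 21.7, 31.3 and 44.5 CPM in quercetin and 26.9, 19.1 and 18.7 CPM in vehicle WAT libraries. At the low end were Ndufa2, a subunit with a thioredoxin fold, at 1.997 ± 0.27, Ndufb7, on the intermembrane side, at 2.08 ± 0.30, and Ndufa13, also known as Grim19, at 2.22 ± 0.30. Ndufa2 had 432, 250 and 448 CPM in quercetin and 205, 330 and 296 CPM in vehicle BAT libraries, against 92.1, 68 and 84.9 CPM in quercetin and 98.99, 74.8 and 67.0 CPM in vehicle WAT libraries. Even this gene therefore had all BAT libraries above all WAT libraries. Ndufa4 was at 2.95 ± 0.32, inside the range of the other genes.

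All 30 genes were also higher in SKM than in WAT, by 2.08-fold to 8.86-fold, the highest being Ndufa12. The adjusted p in edgeR lay between 8.30e-06 and 0.0109, and 50.3% of all genes passed, 21.7% higher in SKM. The median log2 fold change was 2.09 over the 30 genes and -0.24 over all genes. Ndufa12 was again highest at 3.15 ± 0.33, or at 2.59 with the counts of its processed copy added, as described below. It was followed by Ndufb5 at 2.55 ± 0.31 and Ndufc1 at 2.50 ± 0.32, both of the membrane arm. Ndufv3, a small matrix arm subunit known in a short and a long isoform, was lowest at 1.05 ± 0.31, followed by Ndufc2 at 1.37 ± 0.29 and Ndufb3 at 1.40 ± 0.28. Ndufv3 had 84.5, 134 and 208 CPM in quercetin and 85.2, 179 and 89.7 CPM in vehicle SKM libraries, against 72.4, 73.8 and 76.5 CPM in quercetin and 66.2, 41.0 and 49.7 CPM in vehicle WAT libraries. Its lowest SKM library lay just above its highest WAT library. SKM and WAT libraries did not overlap for 29 genes, all but Ndufc2, where 14.3% of all genes had every SKM library higher.

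The core subunits were 2.46 ± 0.34 for Ndufs1, 2.30 ± 0.28 for Ndufv2, 2.14 ± 0.35 for Ndufv1, 2.10 ± 0.30 for Ndufs7, 2.09 ± 0.27 for Ndufs3 and 1.67 ± 0.30 for Ndufs8 in SKM over WAT, and Ndufa4 was at 2.30 ± 0.31. By role the medians were 2.12, 2.11 and 1.95 for the core, accessory matrix arm and accessory membrane arm genes. Without the 4 libraries that stood apart, 30 genes were higher in BAT and 30 in SKM than in WAT, with medians of 2.88 and 2.14. Over all alternative runs, 1442 to 8150 of all genes were called between BAT and WAT and 3091 to 8931 between SKM and WAT. WAT quercetin 1, quercetin 3 and vehicle 3, with 2969, 562 and 1119 CPM of B cell markers, stayed in this fit without the 4 libraries.

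BAT and SKM differed less: 10 of the 30 genes were higher in BAT and 0 were lower in edgeR, where 27.2% of all genes passed, 13.9% higher and 13.3% lower. At an unadjusted p under 0.05 the numbers were 19 genes and 37.9% of all genes. The estimate was above 0 for 30 genes, with a median log2 fold change of 0.63, against 0.03 over all genes. The 10 genes were Ndufa1, Ndufa10, Ndufb3, Ndufb6, Ndufb8 and Ndufc2 of the membrane arm, Ndufv3 and Ndufa9 of the accessory matrix arm, and the core subunits Ndufs8 and Ndufv1. Ndufa1, a small membrane-spanning subunit encoded on the X chromosome, led at 1.38 ± 0.29 (adjusted p = 0.00272 in edgeR). It had 571, 296 and 356 CPM in quercetin and 193, 471 and 424 CPM in vehicle BAT libraries, against 99.8, 172 and 185 CPM in quercetin and 120, 209 and 102 CPM in vehicle SKM libraries. BAT vehicle 1 lay below the highest SKM library, and the other 5 BAT libraries lay above each SKM library.

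Ndufa10, a membrane arm subunit with a nucleoside kinase fold, was at 1.38 ± 0.29 and Ndufb6 at 1.35 ± 0.29. They were the 2 genes with every BAT library above every SKM library, as in 7.16% of all genes. Ndufa10 had 1375, 866 and 596 CPM in quercetin and 459, 910 and 879 CPM in vehicle BAT libraries, against 225, 312 and 357 CPM in quercetin and 375, 444 and 239 CPM in vehicle SKM libraries. Of the core subunits, Ndufs8 was at 1.27 ± 0.30 and Ndufv1 at 1.16 ± 0.34, and both passed. Ndufs1 at 0.73 (0.05 to 1.41), Ndufv2 at 0.69 (0.13 to 1.25), Ndufs3 at 0.61 (0.06 to 1.16) and Ndufs7 at 0.22 (-0.39 to 0.84) did not pass (95% intervals, not adjusted), nor did Ndufa4 at 0.65 (0.01 to 1.28). The lowest estimates beside Ndufs7 were those of Ndufa13 at 0.10 (-0.52 to 0.72) and Ndufa12 at 0.18 (-0.48 to 0.83).

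How many genes passed between BAT and SKM varied with the libraries used. It was 6 among quercetin libraries alone and 0 among vehicle libraries alone, with medians of 0.78 and 0.45, while the share of all genes called higher in BAT was 7.72% among quercetin and 2.25% among vehicle libraries. It was 16 without SKM vehicle 2, beside 11.2% of all genes, and 6 without SKM quercetin 1, beside 10.2%. It was 6 without BAT quercetin 1, beside 10.7%, and 10 without the 4 libraries that stood apart, beside 13.1%. Brown adipocyte markers summed to 2937 to 11600 CPM in BAT and 420 to 1210 CPM in SKM, and muscle markers to 5.16 to 30080 CPM in BAT and 65130 to 120200 CPM in SKM. The part of such admixture in these values was not tested.

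**Figure D2:**
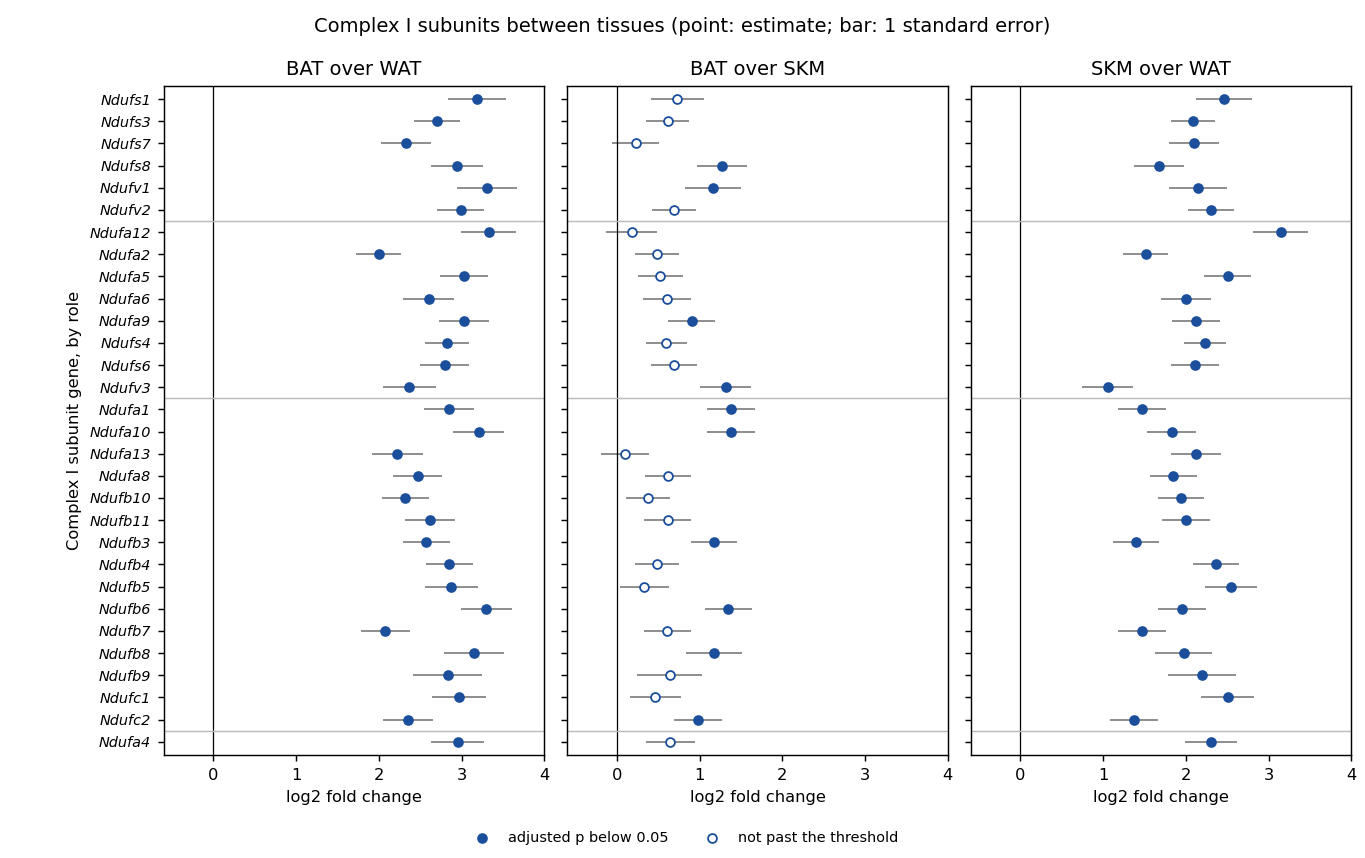
Log2 fold change of each gene between tissues in the fit of 18 libraries (6 libraries per tissue); points are estimates, bars 1 standard error, and filled points passed an adjusted p of 0.05. All 30 points are filled in both comparisons with WAT, and 10 of 30 are filled in BAT over SKM, where the estimates run between 0.10 and 1.38.

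Within a tissue, the order of the genes by level was much the same in all 3 tissues. Ndufa4 had the highest level per length in each, at 1680 ± 511 CPM per kb in BAT, 1069 ± 348 in SKM and 216 ± 56.8 in WAT (SD, n = 6). Next in BAT were Ndufa1 at 920 ± 319 and Ndufb11 at 711 ± 236 CPM per kb. In SKM they were Ndufs7 at 494 ± 180 and Ndufb11 at 462 ± 162, and in WAT Ndufa2 at 142 ± 23 and Ndufb7 at 130 ± 22.1. Lowest were Ndufb9, Ndufs1 and Ndufs4 in BAT, at 174 ± 67.0, 190 ± 68.9 and 195 ± 54.4. In SKM they were Ndufv3, Ndufb9 and Ndufs1 at 82.2 ± 33.6, 110 ± 64.2 and 115 ± 34.1, and in WAT Ndufa12, Ndufs1 and Ndufb9 at 21.1 ± 8.93, 21.1 ± 6.31 and 24.1 ± 9.78. These lowest 3 of each tissue do not differ from each other beyond their SD. The level of Ndufa12 leaves out counts assigned to its processed copy, described below. In WAT, Ndufa12 took 35.9 to 70.1% of the counts of that pair, and its rank with the copy added was not determined. Spearman's rho of the level per length across the 30 genes was 0.885 between BAT and WAT, 0.903 between BAT and SKM and 0.890 between SKM and WAT; genes are not independent replicates, and the tissues share the transcript lengths used.

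Some genes changed place between tissues. Each gene's log2 CPM was set against the median of the 30 genes in the same library, which takes out the overall level of the set. By counts assigned to the gene itself, Ndufa12 moved most, at -0.77 ± 0.65 in BAT, -0.27 ± 0.62 in SKM and -1.51 ± 0.43 in WAT (SD, n = 6). Over the libraries Ndufa12 took 31.9 to 82.4% of the counts of the pair with its processed copy, described below. Whether Ndufa12 would still move most with the copy added was not tested. Ndufv3 was at -0.29 ± 0.19 in BAT, -0.88 ± 0.22 in SKM and -0.05 ± 0.23 in WAT, with its lowest place in SKM. Ndufv1 was at 1.48 ± 0.47 in BAT, 1.09 ± 0.19 in SKM and 0.73 ± 0.40 in WAT. The tissue means of Ndufa12 spanned 1.23, and those of Ndufa8, the steadiest gene between tissues, 0.08. Within groups, the SD of this place was 0.08 for Ndufs6, the lowest, 0.21 at the median, 0.47 for Ndufa12 and 0.57 for Ndufs1, the highest.

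For Ndufs1, 2 libraries were low. It had 186 CPM in BAT quercetin 3 against 418 to 674 CPM in the other BAT libraries, and 138 CPM in SKM vehicle 1 against 284 to 383 CPM in the other SKM libraries. Set against the other 5 BAT libraries, the place of Ndufs1 in BAT quercetin 3 was off by -1.57 on the log2 scale, that of Ndufv1 by -1.13 and that of Ndufa9, a subunit near the ubiquinone site, by -1.05. In the same library Ndufa12, Ndufa13 and Ndufb7 were off by 0.83, 0.74 and 0.74. In SKM vehicle 1 the values were -1.09 for Ndufs1, -0.85 for Ndufc2 and -0.85 for Ndufs8. Over the 30 genes these departures had an SD of 0.57 in BAT quercetin 3 and of 0.12 to 0.35 in the other libraries.

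Ndufa12 has a processed copy to which counts were assigned in these files, and the split of counts between gene and copy differed among libraries. Ndufa12 lies on chromosome 10 (94198720 to 94221443, plus strand, GRCm38), and Gm15920, annotated as a processed pseudogene, on chromosome 5 (130188395 to 130188796, plus strand). Of the 50-base stretches of the principal Ndufa12 transcript, 26.2% also occur in Gm15920. Whether counts assigned to a copy come from its own transcripts or from reads of the parent gene was not tested, here or for the copies below. In BAT, Ndufa12 had 3165, 2970 and 3318 counts in quercetin and 836, 891 and 1827 counts in vehicle libraries, and Gm15920 had 1409, 833 and 710 counts in quercetin and 1591, 1601 and 1451 counts in vehicle libraries. Ndufa12 thus took 69.2, 78.1 and 82.4% of the pair in quercetin and 34.5, 35.8 and 55.7% in vehicle BAT libraries, and these did not overlap. In SKM the share was 79.2, 31.9 and 76.0% in quercetin and 68.4, 64.5 and 79.5% in vehicle libraries, and the low value is that of quercetin 2, the library with seminal vesicle genes. In WAT it was 70.1, 50.4 and 38.4% in quercetin and 42.7, 36.3 and 35.9% in vehicle libraries.

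For 3 other genes with counts assigned to a processed copy the share of the gene was high throughout, at 91.4 to 98.5% for Ndufb4 and Ndufb4c, 93.01 to 96.5% for Ndufs3 and Gm12251, and 95.7 to 98.5% for Ndufs6 and Ndufs6b. With the counts of the copies added to those of the genes, an alternative chosen after seeing the data, Ndufa12 was at 2.996 ± 0.25 in BAT over WAT, 0.41 ± 0.23 in BAT over SKM and 2.59 ± 0.24 in SKM over WAT. In BAT over WAT this value is below the estimates given above for Ndufv1 and Ndufb6. What sets the split was not tested. Exons of Ndufb6 overlap those of Smim27 on the other strand over 39% of their length, and exons of Ndufa13 overlap Tssk6 over 29.98%. The strand setting of the counting is not stated, and without strand the reads of such partners cannot be told apart. Reads set aside as ambiguous between genes came to between 6.47% in WAT vehicle 1 and 9.84% in SKM quercetin 3. Whether reads of these overlaps were among them was not tested. Exons of Ndufb9, among the lowest genes per length, overlap those of Gm49356 on the same strand over 19.5% of their length. The part of this overlap in the counts of Ndufb9 was not tested.

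**Figure D3:**
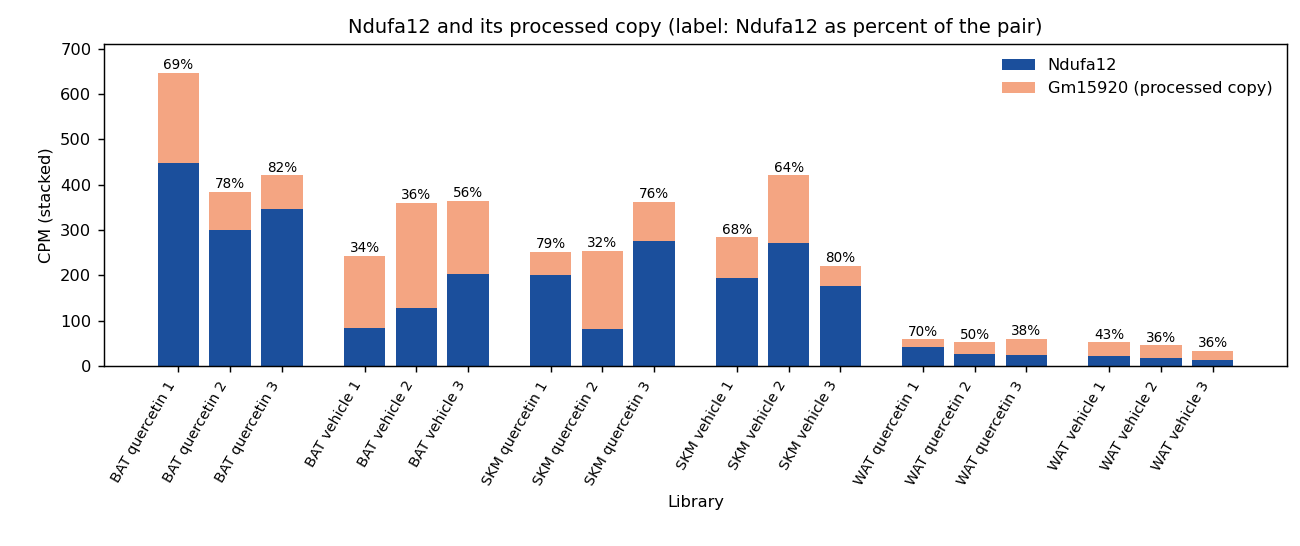
CPM of Ndufa12 (blue) and of its processed copy Gm15920 (orange), stacked, in each of 18 libraries; the label on each bar is the share of Ndufa12 in the pair in percent. In BAT, quercetin libraries have 69.2, 78.1 and 82.4% and vehicle libraries 34.5, 35.8 and 55.7% in Ndufa12.

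Most other nuclear genes of complex I were also lowest in WAT, and fewer of them passed between BAT and SKM. Of 7 nuclear subunits outside the list, 6 were higher in BAT and 6 in SKM than in WAT in edgeR, and 2 were higher in BAT than in SKM. Ndufab1, the mitochondrial acyl carrier protein, had 79.1 to 196 CPM in BAT, 24.8 to 75.9 CPM in SKM and 13.8 to 26.8 CPM in WAT, or 2.76 ± 0.30 in BAT over WAT, 1.66 ± 0.29 in BAT over SKM and 1.102 ± 0.28 in SKM over WAT. Ndufs5 was at 2.77 ± 0.29 in BAT over WAT and 0.94 ± 0.27 in BAT over SKM. Ndufa7 was at 1.83 ± 0.30 in BAT over WAT, and Ndufa11 at 1.98 ± 0.27 in SKM over WAT and 0.44 ± 0.26 in BAT over SKM, which did not pass.

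Of 16 assembly factors measured, 15 were higher in BAT and 10 in SKM than in WAT, and 4 were higher in BAT than in SKM, with 0 lower in edgeR. Their median log2 fold changes were 1.59 in BAT over WAT, 0.40 in BAT over SKM and 0.89 in SKM over WAT. Summed, they came to 4.71 to 6.91% of the summed CPM of the 30 subunit genes in BAT, 5.64 to 7.77% in SKM and 9.84 to 16.5% in WAT, where the share was above each BAT and SKM library. Foxred1, a flavoprotein needed for assembly, had 54.6 to 202 CPM in BAT, 23.8 to 35.3 CPM in SKM and 22.2 to 39.1 CPM in WAT, with each BAT library above all SKM and WAT libraries. It was at 2.31 ± 0.28 in BAT over SKM, 2.12 ± 0.28 in BAT over WAT and -0.19 ± 0.27 in SKM over WAT, which did not pass.

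Ndufaf6 had 14.4 to 24.8 CPM in BAT, 17.9 to 36.8 CPM in SKM and 3.73 to 6.16 CPM in WAT. It was at 2.42 ± 0.22 in SKM over WAT and at -0.55 ± 0.21 in BAT over SKM, which did not pass (adjusted p = 0.0656 in edgeR). Ndufaf5, known in human cells to modify NDUFS7, was at 2.23 ± 0.33 in SKM over WAT and -0.43 ± 0.31 in BAT over SKM, which did not pass. Ecsit was at 2.04 ± 0.26 and Tmem126b at 1.07 ± 0.29 in BAT over WAT, and Ndufaf7 at 0.99 ± 0.25 in BAT over SKM. Dmac1, at 0.31 ± 0.22 in BAT over WAT and 0.29 ± 0.22 in SKM over WAT, passed in neither.

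The 7 ND genes of mitochondrial DNA were set against the nuclear genes within each library. Their summed CPM was 3.25 to 9.49 times that of the 30 genes in BAT, 4.98 to 6.61 times in SKM and 2.65 to 6.46 times in WAT, and these ranges overlapped. The highest ratio was that of BAT vehicle 1, where the 30 genes summed to 7638 CPM, and the other BAT libraries had 3.25 to 5.41. The lowest was that of WAT vehicle 2, the library with few adipocyte markers. In edgeR 5 of the 7 ND genes were higher in BAT and 5 in SKM than in WAT, and 0 passed between BAT and SKM. The 41 nuclear genes listed for complexes II to V came to 2.93 to 4.15 times the CPM of the 30 genes in BAT, 3.05 to 3.38 times in SKM and 2.81 to 3.45 times in WAT. Of these 41 genes, 40 were higher in BAT than in WAT in edgeR, with a median log2 fold change of 2.99. In SKM over WAT 39 were higher and 2 lower, with a median of 2.06. In BAT over SKM 24 were higher and 3 lower, with a median of 0.87.

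**Figure D4:**
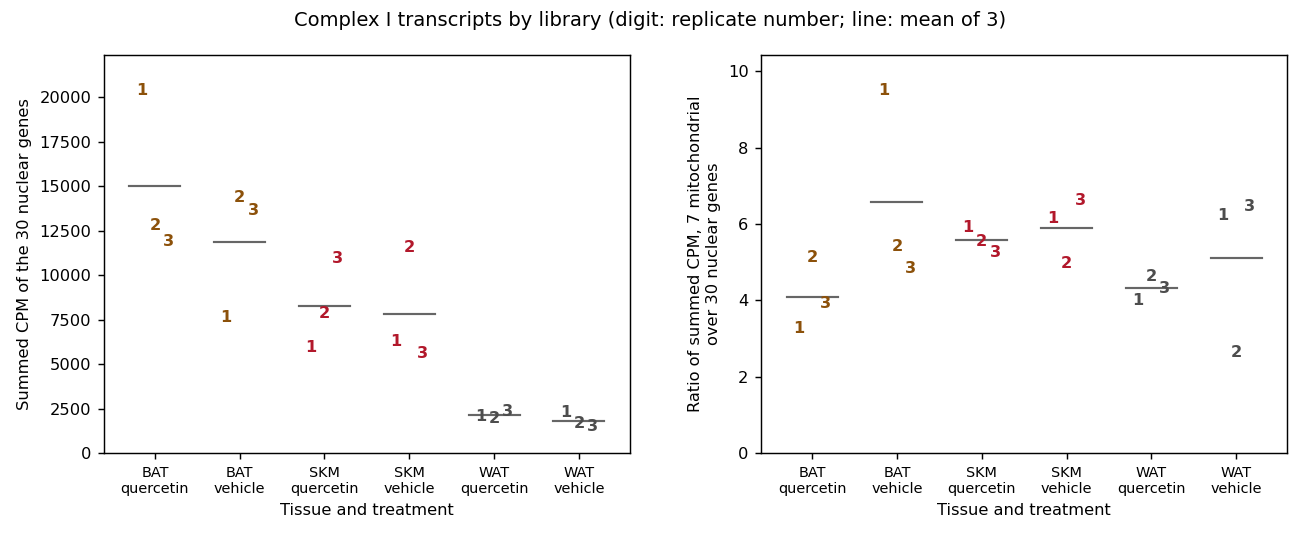
Left, summed CPM of the 30 nuclear genes; right, ratio of the summed CPM of the 7 mitochondrially encoded ND genes to that of the 30 nuclear genes; each digit is 1 library at its replicate number, and lines are means of 3. BAT quercetin 1 has the highest sum, 20370 CPM, and BAT vehicle 1 the highest ratio, 9.49.

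With quercetin against vehicle in BAT, 0 of the 30 genes passed in edgeR's quasi-likelihood test and 0.0% of 13274 genes passed, and the smallest adjusted p of the 30 was 0.977. At an unadjusted p under 0.05 there was 1 of the 30 genes and 1.82% of all genes, and DESeq2 called 3 genes of all and 0 of the 30. The estimate was above 0 for 30 genes, with a median log2 fold change of 0.34, against 0.05 over all genes. The median was carried by BAT quercetin 1 and BAT vehicle 1, the libraries with the highest and lowest sums. It was 0.11 without quercetin 1, with 21 genes above 0, and 0.10 without vehicle 1, with 26 above 0. Without quercetin 3 it was 0.44. The 95% intervals of the genes had a median lower bound of -0.54 and a median upper bound of 1.27. The 6 muscle markers, raised in BAT quercetin 3, had 6 estimates above 0 with a median of 2.28, and their part in these values was not tested.

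Ndufa12 was the gene with an unadjusted p under 0.05. It had 448, 300 and 347 CPM in quercetin and 83.8, 129 and 203 CPM in vehicle BAT libraries, so that the groups did not overlap, as in 2.87% of all genes in that direction. Its log2 fold change was 1.41 (0.49 to 2.32), with an unadjusted p of 0.00804 and an adjusted p of 0.977 in edgeR. The pair of Ndufa12 and Gm15920 had 647, 385 and 421 CPM in quercetin and 243, 360 and 364 CPM in vehicle libraries, and with the copies added the log2 fold change was 0.59 ± 0.34. The next genes by p, none of which passed, were Ndufb7 at 0.67 (-0.26 to 1.60), Ndufa13 at 0.64 (-0.36 to 1.63) and Ndufa2 at 0.46 (-0.39 to 1.31). Ndufb7 had 506, 280 and 498 CPM in quercetin and 171, 330 and 314 CPM in vehicle BAT libraries, and vehicle 1 was the lowest of the 6 libraries.

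Of the core subunits in BAT, Ndufs8 was at 0.41, Ndufs7 at 0.40, Ndufv2 at 0.35, Ndufs3 at 0.33, Ndufv1 at 0.07 and Ndufs1 at 0.01, and Ndufa4 was at 0.25. The estimates of the 7 remaining nuclear subunits had a median of 0.44 and those of the 16 assembly factors 0.26. Estimates of the 41 genes of complexes II to V had a median of 0.31, with 40 above 0, so estimates above 0 were not limited to complex I genes. Those of the 7 ND genes had a median of -0.17, with 1 above 0, and 0 genes of these lists passed. How the medians of these lists change when 1 library is left out was not determined.

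In SKM, 0 of the 30 genes and 0.0% of 13562 genes passed in edgeR, and the smallest adjusted p of the 30 was 0.916. At an unadjusted p under 0.05 there were 0 of the 30 genes and 2.99% of all genes, and DESeq2 called 4 genes of all and 0 of the 30. Estimates were above 0 for 18 genes and below 0 for 12, with a median of 0.05, against -0.03 over all genes. The sign of the median changed with the library left out: it was -0.23 without quercetin 3, -0.17 without vehicle 3, -0.08 without vehicle 1, 0.11 without quercetin 2, 0.27 without quercetin 1 and 0.47 without vehicle 2. The 5 adipocyte markers had 0 estimates above 0 with a median of -1.02, and the 5 red blood cell markers 0 with a median of -0.54. Of 5 macrophage markers 4 were above 0, with a median of 1.09, and the 1 T cell marker tested was at 1.79. Muscle markers had 4 above 0 and 2 below, with a median of 0.35. Endothelial markers had 1 above 0 and 3 below, and brown adipocyte markers 2 above and 1 below. The part of these markers was not tested. No gene of the 30 separated the groups, where 5.85% of all genes did so with quercetin higher and 3.4% with quercetin lower.

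The smallest p in SKM belonged to Ndufs1 at 0.33 (-0.58 to 1.24), Ndufb8, of the membrane arm, at 0.35 (-0.63 to 1.34), Ndufa10 at -0.28 (-1.09 to 0.52) and Ndufs8 at 0.33 (-0.67 to 1.32). Ndufs1 had 314, 346 and 377 CPM in quercetin and 138, 383 and 284 CPM in vehicle SKM libraries, and vehicle 1 was the low library. Of the other core subunits, Ndufs7 was at 0.27, Ndufv1 at 0.18, Ndufv2 at 0.04 and Ndufs3 at -0.04, and Ndufa4 was at -0.01.

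In WAT, 0 of the 30 genes and 0.0% of 14919 genes passed in edgeR, and the smallest adjusted p of the 30 was 0.9998. At an unadjusted p under 0.05 there were 0 of the 30 genes and 0.818% of all genes, and DESeq2 called 6 genes of all and 0 of the 30. Estimates were above 0 for 27 genes, with a median of 0.23, against -0.01 over all genes. The median was 0.40 without WAT vehicle 1, with 30 genes above 0, 0.20 without vehicle 2, with 22, 0.13 without vehicle 3, with 21, and 0.15 without quercetin 3, with 24. Among the libraries of flow cell H7H2WDSXX, which leaves out quercetin 2 and vehicle 1, it was 0.42 with 30 above 0, and 0 genes passed.

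For 3 lists of markers of other cell types in WAT every estimate was below 0, and none passed the test. The 5 red blood cell markers had 0 estimates above 0 and a median log2 fold change of -2.35, and summed to 38.7 to 109 CPM in quercetin and 10.02 to 811 CPM in vehicle WAT libraries. The 4 endothelial markers had 0 above 0 and a median of -1.196, and summed to 330 to 784 CPM in quercetin and 272 to 2662 CPM in vehicle WAT libraries. Of 6 muscle markers, 4 were tested, with 0 above 0 and a median of -5.12, and all 6 summed to 40.7 to 86.3 CPM in quercetin and 14.0 to 1090 CPM in vehicle WAT libraries. The highest sums of red blood cell and endothelial markers were those of vehicle 1, and the highest sum of muscle markers that of vehicle 2. The 4 T cell markers went the other way, with 4 estimates above 0 and a median of 0.38. Estimates of adipocyte, brown adipocyte, macrophage and B cell markers went in both directions. The part of these markers in the values of the 30 genes was not tested.

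Ndufa12, Ndufv3, Ndufa13 and Ndufb10 had every quercetin library above every vehicle library of WAT, as in 2.61% of all genes. Ndufa12 had 40.8, 26.1 and 22.8 CPM in quercetin and 22.1, 16.5 and 11.8 CPM in vehicle WAT libraries, a log2 fold change of 0.80 (-0.10 to 1.71), or 0.36 ± 0.26 with the copies added. Ndufv3, whose WAT values stand above, was at 0.48 (-0.22 to 1.18), Ndufa13 at 0.39 (-0.17 to 0.95) and Ndufb6 at 0.57 (-0.32 to 1.47). Of the core subunits, Ndufs1 was at 0.43, Ndufs8 at 0.25, Ndufs3 at 0.23, Ndufv1 at 0.13, Ndufv2 at 0.09 and Ndufs7 at 0.02, and Ndufa4 was at 0.08. The 41 genes of complexes II to V had 29 estimates above 0 in WAT, with a median of 0.22.

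**Figure D5:**
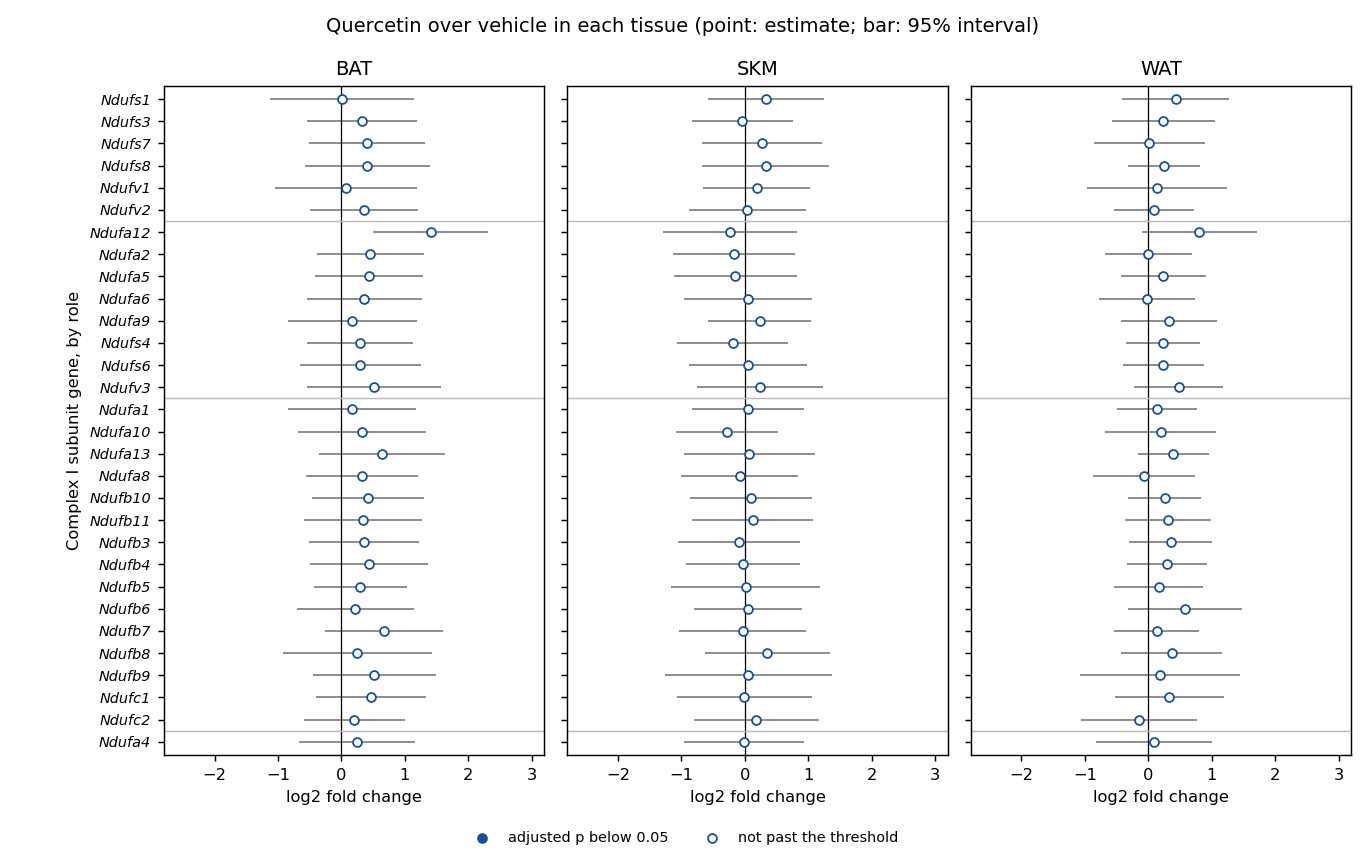
Log2 fold change of quercetin over vehicle for each gene in BAT, SKM and WAT (3 libraries per group), with 95% intervals that are not adjusted. No point passed the threshold, so all are open, and the interval of Ndufa12 in BAT, 0.49 to 2.32, is the only one shown that leaves out 0.

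Whether the effect of quercetin differed between tissues was tested with interaction contrasts over the 18 libraries. In edgeR, 0 of the 30 genes and 0.0% of 16388 genes passed in each of the 3 contrasts. At an unadjusted p under 0.05 there were 0 of the 30 genes and 1.06% of all genes for BAT minus WAT, 1 gene and 1.36% for BAT minus SKM, and 0 genes and 1.41% for SKM minus WAT. The 1 gene was Ndufa12, at 1.60 (0.29 to 2.92) in BAT minus SKM, and with the copies added it was at 0.68 ± 0.46. Medians over the 30 genes were 0.12 for BAT minus WAT, 0.28 for BAT minus SKM and -0.15 for SKM minus WAT. Each of these medians changed sign when 1 library was left out. BAT minus WAT was -0.11 without BAT quercetin 1, -0.06 without BAT vehicle 1 and -0.01 without WAT vehicle 1. BAT minus SKM was -0.15 without SKM vehicle 2. SKM minus WAT was 0.05 without SKM quercetin 1 and 0.26 without SKM vehicle 2. In BAT minus SKM the bounds of the 95% intervals had medians of -0.97 and 1.498, so that differences of that size in either direction were not resolved with these libraries.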

How the data were processed

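The deposited files hold raw counts per Ensembl gene. Per the submitters' processing notes these were made with HISAT2 and HTSeq on mm10, with DESeq2 also named; neither versions, annotation release nor strand setting are stated there. Symbols, positions and transcript lengths came from GENCODE M21 (GRCm38), promoter windows from RefSeq. Genes were kept by filterByExpr (minimum count 10, minimum total 15), TMM-normalised and tested two-sided with edgeR 4.0.16 (glmQLFit, glmQLFTest; R 4.3.3), adjusted by Benjamini-Hochberg over all genes, threshold 0.05. Tissue contrasts (mean of both treatments) and interactions used 1 fit of 6 groups over 18 libraries, quercetin comparisons a fit per tissue of 3 against 3 libraries. SE is the size of the log2 fold change divided by the square root of F. DESeq2 1.42.0, other filters, libraries left out and blocks were alternatives. Named are the core subunits and Ndufa4, the 3 highest and lowest estimates of each tissue contrast, the 4 smallest p of each quercetin comparison, the 3 highest and lowest levels per length, the 3 genes that most changed place, and the 2 highest and lowest assembly factors and remaining subunits; other names were chosen after their values were seen. One gene that this rule names is not reported here. The members and lists were chosen with earlier results of these data known. The labels number the samples without saying that each is a separate animal, so p-values cover variation among libraries only. The fit was also run on simulated data, and the outcome of that run is not given here.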

Additional observations from a re-analysis of the deposited data

How the results depend on the processing

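In every alternative run, 30 genes were higher in BAT than in WAT, where 1442 to 8150 of all genes were called in either direction. In SKM against WAT the number was 30 except with vehicle libraries alone (28, without Ndufv3 and Ndufc2) and with quercetin libraries alone (29, without Ndufv3). Between BAT and SKM it was 0 with vehicle libraries alone, 6 with quercetin libraries alone, 6 to 16 when 1 library was left out and 9 to 11 otherwise. With vehicle libraries alone, BAT over SKM was -0.669 for Ndufa12 and -0.204 for Ndufa13, and without the 4 libraries that stood apart -0.01658 and -0.0987. With 1 library left out, these estimates ran from -0.0136 to 0.362 for Ndufa12 and from -0.00597 to 0.323 for Ndufa13. Over all genes, vehicle libraries alone gave 1442, 871 and 3091 calls for BAT over WAT, BAT over SKM and SKM over WAT, and quercetin libraries alone 2965, 2130 and 4786, against 6604, 4461 and 8251 with all libraries; these fits hold fewer samples by construction.

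For quercetin and its interactions, 0 of the 30 genes passed in any alternative. Over all genes, DESeq2 called 3 in BAT, 4 in SKM and 6 in WAT, and edgeR called 32 in SKM with no filter and 0 to 1 in BAT when 1 library was left out, the 1 call being without BAT quercetin 3. Ndufb8 in SKM was at -0.0271 within flow cell H7H2WDSXX, and from -0.0271 to 0.759 when 1 library was left out. With 1 library left out, the median of the quercetin interactions ran from -0.114 to 0.324 for BAT minus WAT, -0.155 to 0.551 for BAT minus SKM and -0.496 to 0.262 for SKM minus WAT. The cause of these changes was not tested.

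Title numbers were not used as pairs in the main fits. Deviations of same-numbered quercetin and vehicle libraries of a tissue correlated at -0.72 to 0.26. Between tissues, same-numbered vehicle libraries correlated at 0.08 to 0.29, all above 0, and differently numbered ones at -0.33 to 0.15. For quercetin libraries the ranges were -0.17 to 0.21 and -0.23 to 0.16. Whether same-numbered libraries of an arm shared an animal is not stated in the labels and was not tested. With the replicate number as a block, 0 of the 30 genes passed in any tissue, and medians for quercetin were 0.36 in BAT, 0.06 in SKM and 0.26 in WAT. With each treatment and number of the titles taken as a block across tissues, 30, 11 and 30 genes were higher in BAT over WAT, BAT over SKM and SKM over WAT, and 7000, 4951 and 8660 of all genes were called. Each of the 30 genes had at least 125 counts in every library. What part counting, assignment of counts to copies and spread among libraries had in these comparisons was not tested.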

Other observations

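Ndufb2, a membrane arm subunit outside the list of 30 genes, was counted at 1.28 to 6.47 CPM over the 18 libraries, where the lowest value of any of the 30 genes in any library was 9.68 CPM, that of Ndufb9 in WAT vehicle 3. Ndufb2 was at 0.53 ± 0.34 in BAT over WAT (adjusted p = 0.235 in edgeR) and -0.09 ± 0.34 in SKM over WAT, and passed in neither. Exon overlaps and processed copies were examined only for the 30 genes. Whether the low counts of Ndufb2 reflect its transcript level or the way reads were counted was not tested.

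Ndufa4l2, a paralog of Ndufa4 chosen for mention after its values were seen, had 7.29 to 14.2 CPM in BAT, 10.8 to 22.1 CPM in SKM and 2.42 to 8.83 CPM in WAT. Its log2 fold change was 1.04 ± 0.34 in BAT over WAT (adjusted p = 0.0244 in edgeR), -0.53 ± 0.34 in BAT over SKM (adjusted p = 0.277) and 1.56 ± 0.34 in SKM over WAT (adjusted p = 0.00175).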
